A study of Mus musculus with 8 samples.

Results

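The genes described here are 10 genes of islet macrophages and of MHC class II antigen presentation: H2-Aa, H2-Ab1, H2-Eb1, Cd74 and Ciita of the class II pathway, and Cd14, Cd68, Lyz2, Ctss and Tyrobp, which myeloid cells express. They were chosen by name, and 6 of the 10 had values among the 13725 genes of the deposited table, namely H2-Aa, H2-Ab1, H2-Eb1, Cd74, Cd14 and Cd68. Ciita, Lyz2, Ctss and Tyrobp were not analysed here. All 6 passed the filter on low values used for testing, which kept 12231 genes. RNA came from pancreatic islets of female NOD mice at 10 weeks of age, a strain that develops autoimmune diabetes. In 4 libraries the mice had been given vehicle, and in the other 4 PAHSA, a family of lipids in which palmitic acid is joined to a hydroxystearic acid, spelled PASHA in the sample labels. No dose, route or duration is given in the labels, and nothing but the treatment separates the groups there. The protocol in the labels describes islets pooled from 2 mice per set, whereas the design text counts 4 mice per treatment, so p-values measure the spread between libraries.

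MHC class II molecules are pairs of an alpha and a beta chain that display peptides from the endosomal route to CD4 T cells. H2-Aa and H2-Ab1 encode the alpha and beta chain of I-A, and H2-Eb1 encodes the beta chain of I-E. NOD mice carry an unusual I-A beta chain, and their I-E alpha chain gene is not expressed, so that they lack I-E at the cell surface. Cd74 encodes the invariant chain, which blocks the groove during assembly and escorts class II to the endosome. Ciita is the master transactivator of all these genes, recruited to the X and Y boxes of their promoters by the RFX complex and NF-Y, and it is inducible by interferon gamma. Cd14 is the lipopolysaccharide co-receptor of Tlr4, and Cd68 is a membrane glycoprotein of lysosomes that is abundant in macrophages. Lyz2 encodes lysozyme, Ctss the protease that trims the invariant chain, and Tyrobp the adaptor of several activating receptors. In NOD islets, resident macrophages and infiltrating leukocytes are the best known sources of class II.

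RefSeq promoter windows of GRCm38.p6, from 250 bases before to 50 bases after the annotated start site, were at hand for 5 of the 10 genes. The windows of H2-Aa (chr17:34287774-34288073, minus strand) and H2-Eb1 (chr17:34305617-34305916, plus strand) are shown because no window was at hand for H2-Ab1, Cd74 or Ciita. That of Cd68 (chr11:69666121-69666420, minus strand) is shown beside them as the window of a gene outside the class II pathway. No relation between the motifs and the levels was tested. Capitals mark the X box core CTNGCAAC and the Y box core CTGATTGG, both searched on either strand.
H2-Aa: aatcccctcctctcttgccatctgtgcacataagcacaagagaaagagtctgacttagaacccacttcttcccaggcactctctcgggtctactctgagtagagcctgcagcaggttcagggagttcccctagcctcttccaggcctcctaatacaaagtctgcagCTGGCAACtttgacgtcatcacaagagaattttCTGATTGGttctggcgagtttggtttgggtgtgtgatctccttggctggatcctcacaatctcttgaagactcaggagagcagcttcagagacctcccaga
H2-Eb1: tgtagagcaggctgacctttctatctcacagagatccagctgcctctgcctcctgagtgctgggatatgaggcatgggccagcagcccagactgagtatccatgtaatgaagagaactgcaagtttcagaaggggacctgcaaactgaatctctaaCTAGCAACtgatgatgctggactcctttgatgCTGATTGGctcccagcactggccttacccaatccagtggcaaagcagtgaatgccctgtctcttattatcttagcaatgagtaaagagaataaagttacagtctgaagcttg
Cd68: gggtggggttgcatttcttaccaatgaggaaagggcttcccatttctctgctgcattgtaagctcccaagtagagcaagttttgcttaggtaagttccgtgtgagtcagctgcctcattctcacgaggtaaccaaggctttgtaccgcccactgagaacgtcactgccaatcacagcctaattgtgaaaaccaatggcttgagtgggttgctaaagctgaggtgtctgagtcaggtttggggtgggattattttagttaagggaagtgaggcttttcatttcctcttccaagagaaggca
In H2-Aa the X box core begins 84 bases before the start site and the Y box core 51 bases before it, with 25 bases between the boxes. In H2-Eb1 the corresponding distances are 94 and 62 bases, with 24 bases between the boxes. The Cd68 window holds neither core, and holds 3 matches of the shorter CCAAT motif (ATTGG on either strand), which also lies within the Y box core. Over all 32851 windows, 4.10% held the Y box core, 3.42% the X box core and 37.4% the CCAAT motif. An X box core within 40 bases before a Y box core on the same strand was found in 8 windows, 0.0244%, which belong to 7 genes, H2-Aa and H2-Eb1 among them. The letters of the X box core were chosen with these windows in view, so the matches describe the windows and are no evidence of binding.

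**Figure D1:**
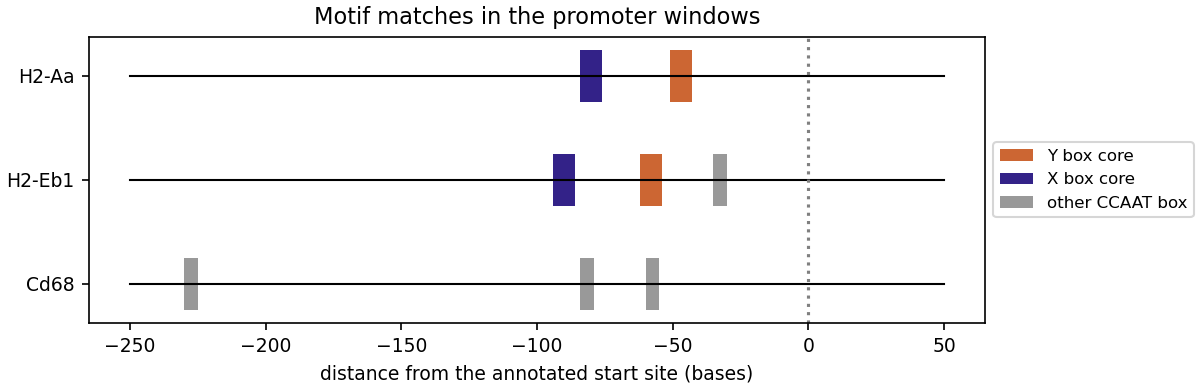
Positions of the motif matches in the promoter windows of H2-Aa, H2-Eb1 and Cd68, with the distance from the annotated start site in bases on the horizontal axis. Coloured boxes are matches on either strand; H2-Aa and H2-Eb1 each hold an X box core followed by a Y box core, with 25 and 24 bases between them, and Cd68 holds 3 CCAAT matches only.

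The libraries held between 34461742 and 45236238 estimated counts, and the 6 genes between 251 (H2-Eb1 in PAHSA replicate 1) and 13216 (Cd74 in vehicle replicate 1). The insulin genes Ins1 and Ins2 and 8 other beta cell markers all had values. Their summed level was 137132 to 180008 CPM in vehicle and 141476 to 175773 CPM in PAHSA, so defining islet markers were abundant in all 8 libraries. CPM are counts scaled to a library size that need not equal the library's total. The macrophage label could be checked only in small part, since 4 of 31 other macrophage markers, 1 of 12 pan-leukocyte markers and 0 of 9 dendritic cell markers had values. Ptprc, Adgre1, Csf1r, Itgax, Cd3e and Ms4a1 were not analysed here. In no gene of the table were more than 3 libraries at the lowest value. The cells that carried the class II RNA could therefore not be told from these values, and in bulk islets fewer cells of a type and less RNA per cell cannot be told apart.

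All 6 genes had a lower mean in PAHSA than in vehicle, but only Cd14 reached an unadjusted p under 0.05, and none passed after adjustment over all genes. Cd14 was at 0.426 times its vehicle level, and the 4 class II chain genes (H2-Aa, H2-Ab1, H2-Eb1 and Cd74) lay between 0.633 and 0.857 times, whereas Cd68 was at 0.930 times. The median log2 difference, PAHSA minus vehicle, was -0.52 over the 4 chain genes and -0.67 over Cd14 and Cd68, beside -0.006 over all genes tested. By limma, 0 of 12231 genes (0%) passed a Benjamini-Hochberg adjusted p of 0.05, with a smallest adjusted p of 0.671. At an unadjusted p under 0.05 there were 1 of the 6 genes and 894 of all genes, a background of 7.31%, of which 4.29% were lower and 3.02% higher in PAHSA. A lower mean in PAHSA was found for 6 of the 6 genes and for 50.9% of all genes. The 4 chain genes varied together from library to library, so these 6 are not 6 separate observations. The groups overlapped in all 6 genes, where 4.01% of all genes had groups that did not overlap.

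**Figure D2:**
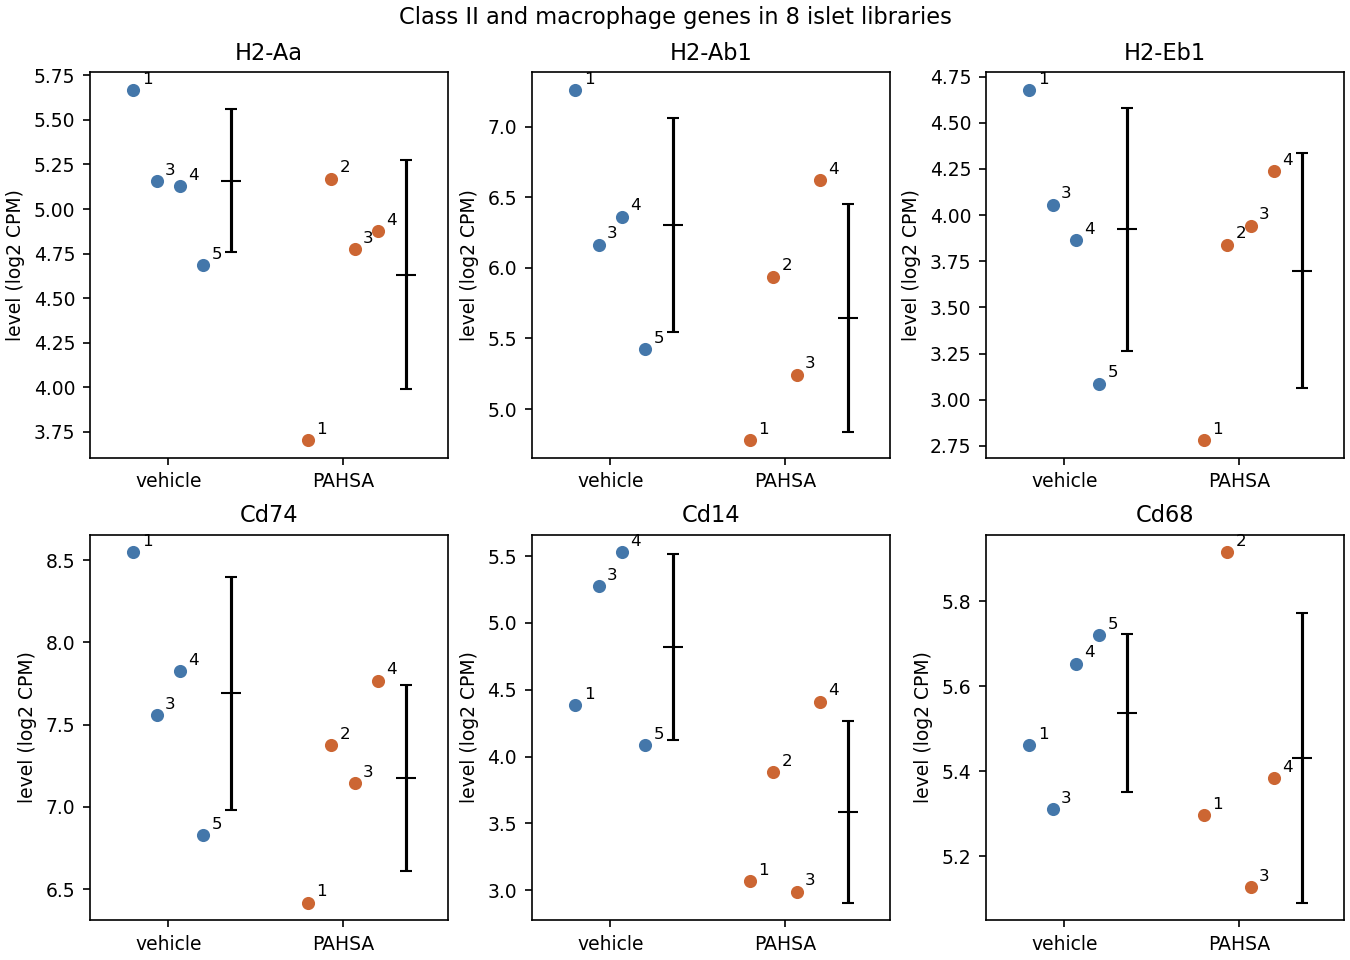
Level of each gene in log2 CPM (vertical axis) in the 4 vehicle and 4 PAHSA libraries, with each point labelled by its replicate number and the bar giving the mean and SD of a group. Vehicle replicate 1 is the highest and PAHSA replicate 1 the lowest library for H2-Aa, H2-Ab1, H2-Eb1 and Cd74, and the groups overlap in every panel.

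H2-Ab1 (ENSMUSG00000073421), the I-A beta chain, lies on chromosome 17 from 34257689 to 34269419 on the plus strand of GRCm38. It was at 153.4, 71.8, 82.2 and 43.0 CPM in vehicle replicates 1, 3, 4 and 5, and at 27.4, 61.3, 37.9 and 98.4 CPM in PAHSA replicates 1, 2, 3 and 4. PAHSA replicates 1 and 3 lay below every vehicle library, and PAHSA replicates 2 and 4 inside the vehicle range. The mean was 6.30 ± 0.75 on the log2 CPM scale with vehicle and 5.64 ± 0.81 with PAHSA (SD, n = 4), a difference of -0.66 (SE 0.43, 95% confidence interval -1.60 to 0.29, limma adjusted p = 0.760). H2-Aa (ENSMUSG00000036594), the I-A alpha chain, lies beside it on the minus strand, from 34282744 to 34287823. Its levels were 50.9, 35.7, 35.0 and 25.7 CPM in vehicle replicates 1, 3, 4 and 5, and 13.0, 36.02, 27.4 and 29.4 CPM in PAHSA replicates 1, 2, 3 and 4. Only PAHSA replicate 1 was below the vehicle range, and the other 3 PAHSA libraries were inside it. The log2 difference of H2-Aa was -0.53 (SE 0.32, 95% confidence interval -1.23 to 0.18, limma adjusted p = 0.748), and -0.22 without PAHSA replicate 1. That of H2-Ab1 was -0.34 without vehicle replicate 1 and -0.37 without PAHSA replicate 1.

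H2-Eb1 (ENSMUSG00000060586), the I-E beta chain, lies on chromosome 17 from 34305867 to 34316674 on the plus strand. It was at 25.6, 16.6, 14.6 and 8.50 CPM in vehicle replicates 1, 3, 4 and 5, and at 6.87, 14.3, 15.4 and 18.9 CPM in PAHSA replicates 1, 2, 3 and 4. As for H2-Aa, PAHSA replicate 1 alone was below the vehicle range. The log2 difference of -0.22 (SE 0.40, 95% confidence interval -1.11 to 0.66, limma adjusted p = 0.927) was smaller than the SD of either group, 0.66 in vehicle and 0.64 in PAHSA, and turned to 0.03 without vehicle replicate 1 and to 0.084 without PAHSA replicate 1. It was -0.50 without vehicle replicate 5 and -0.40 without PAHSA replicate 4. An antisense gene, Gm20513, overlaps H2-Eb1, and the library kit does not mark the strand, so reads of the pair could not be told apart.

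Cd74 (ENSMUSG00000024610), the invariant chain, lies on chromosome 18 from 60803848 to 60812652. It was at 374.7, 188.3, 226.6 and 113.7 CPM in vehicle replicates 1, 3, 4 and 5, and at 85.5, 165.8, 141.5 and 217.8 CPM in PAHSA replicates 1, 2, 3 and 4. Vehicle replicate 1 was 4.38 times PAHSA replicate 1, and these were again the highest and the lowest library. The log2 difference was -0.51 (SE 0.35, 95% confidence interval -1.29 to 0.26, limma adjusted p = 0.774). It was -0.23 without vehicle replicate 1, -0.26 without PAHSA replicate 1 and -0.80 without vehicle replicate 5. Per kilobase of the longest coding transcript, Cd74 was the highest of the 6 genes at a mean of 134.2 CPM per kilobase over the 8 libraries, and it exceeded H2-Ab1, at 59.3, in 8 of 8 libraries. H2-Ab1 exceeded Cd68 (36.9) in 6 of 8 libraries and Cd68 exceeded H2-Aa (28.04) in 7 of 8, so these neighbours in the order overlapped. H2-Aa in turn exceeded Cd14 (13.3) in 8 of 8 libraries, and Cd14 exceeded H2-Eb1 (9.04) in 6 of 8. kallisto divides reads among similar transcripts by a model and the authors' annotation is not given in the sources used here, so levels of the polymorphic H2 genes in NOD are less certain than those of Cd14 or Cd68.

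The spread of the class II genes between libraries was shared by all 4 of them and spanned 3.73-fold to 5.59-fold from the lowest to the highest library. Vehicle replicate 1 ranked first and PAHSA replicate 1 last of 8 libraries in each of the 4 genes, and vehicle replicate 5 ranked sixth or seventh. Over the 8 libraries, the 6 pairs among these genes had Pearson's r between 0.85 and 0.97 (exact permutation p, adjusted over 15 pairs, at most 0.0128) and Spearman's rho between 0.64 and 0.95. Of the rank correlations, that of H2-Ab1 with Cd74 passed (adjusted exact permutation p = 0.0171) and the largest adjusted p was 0.180. Without the 2 libraries farthest from the median, r ranged from 0.48 (H2-Aa with H2-Eb1) to 0.91 (H2-Ab1 with Cd74), and H2-Ab1 with H2-Eb1 stood at 0.61, so these relations rest in part on the libraries left out. Taken as deviations from the group means, the same 6 pairs had r between 0.82 and 0.97.

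**Figure D3:**
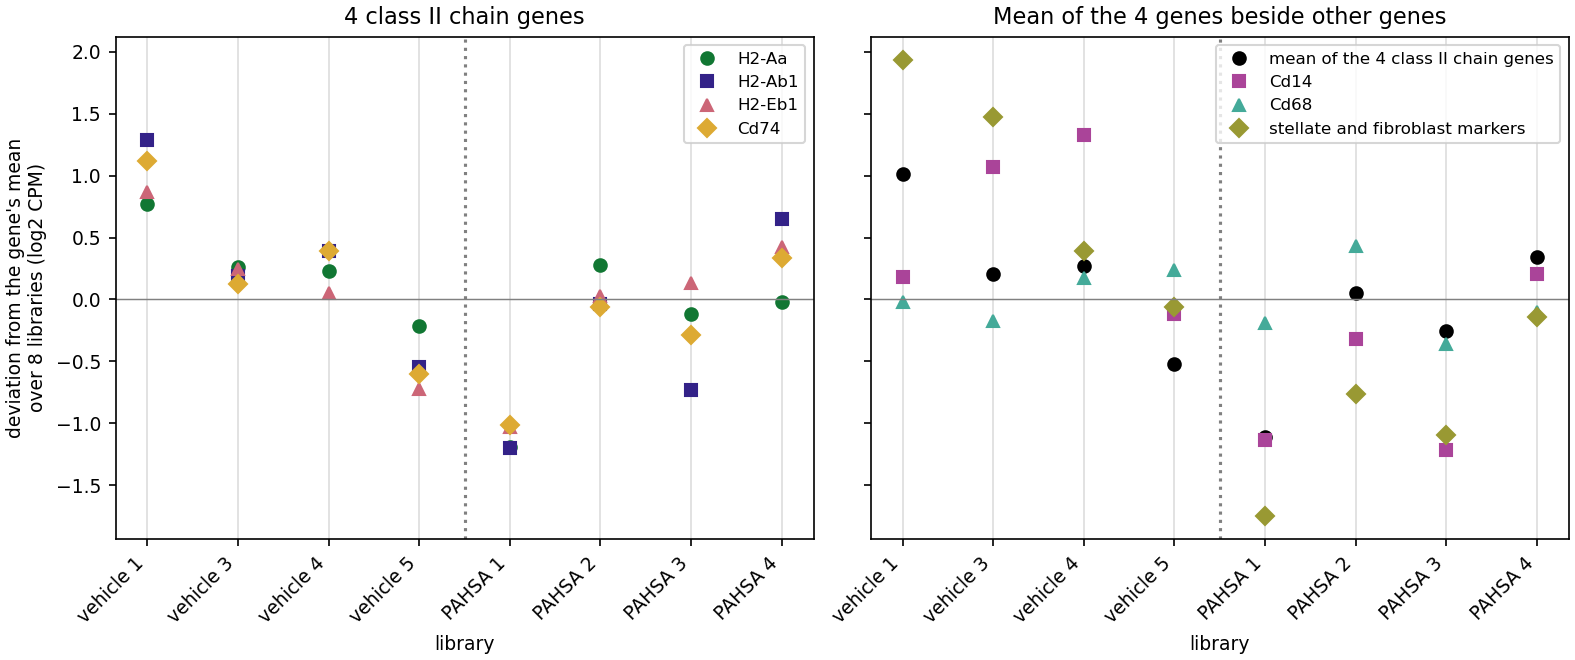
Deviation of each gene from its own mean over the 8 libraries, in log2 CPM, for the 4 class II chain genes (left) and for their mean beside Cd14, Cd68 and the mean of 10 stellate and fibroblast markers (right), with libraries along the horizontal axis and a dotted line between vehicle and PAHSA. The mean of the 4 chain genes runs from 1.01 in vehicle replicate 1 to -1.11 in PAHSA replicate 1, the genes lie farthest apart in PAHSA replicate 3 (-0.73 for H2-Ab1, 0.13 for H2-Eb1), and Cd68 stays between -0.36 and 0.43.

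The chain genes were also measured within each library as a ratio to Cd74. The log2 ratio of H2-Ab1 to Cd74 was -1.39 ± 0.07 in vehicle and -1.53 ± 0.32 in PAHSA (SD, n = 4; two-sided exact permutation p = 0.457, adjusted 0.686 over 3 ratios). That of H2-Aa was -2.53 ± 0.32 and -2.54 ± 0.31 (exact permutation p = 0.886, adjusted 0.886). For H2-Eb1 it was -3.77 ± 0.20 in vehicle and -3.48 ± 0.19 in PAHSA, a difference of 0.29 that was the largest of the 3 and exceeded the SD of either group (exact permutation p = 0.114, adjusted 0.343). With 4 against 4 libraries the smallest unadjusted p such a test can give is 0.0286, so 1 ratio alone could not pass after adjustment, and these p-values do not show that the ratios were alike.

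Cd14 (ENSMUSG00000051439), on chromosome 18 from 36725067 to 36726798, was the gene of the 6 with the largest difference. It was at 20.9, 38.7, 46.2 and 17.0 CPM in vehicle replicates 1, 3, 4 and 5, and at 8.40, 14.7, 7.95 and 21.3 CPM in PAHSA replicates 1, 2, 3 and 4. Of the PAHSA libraries 3 lay below every vehicle library, and PAHSA replicate 4 lay above vehicle replicates 1 and 5. Its mean log2 CPM was 4.82 ± 0.69 with vehicle and 3.59 ± 0.68 with PAHSA (SD, n = 4), a difference of -1.23 (SE 0.41, 95% confidence interval -2.13 to -0.33). In limma the unadjusted p was 0.0119 and the adjusted p 0.671, and Cd14 ranked 201 of 12231 genes by p. The unadjusted limma p stayed under 0.05 in 19 of 20 alternatives. In the other, with the mean of stellate and fibroblast markers added to the model, the difference of Cd14 was -0.57 (limma adjusted p = 0.990). The groups did not overlap in that marker mean, so this fit cannot separate it from treatment. With the chain genes Cd14 had Pearson's r from 0.43 to 0.66 and Spearman's rho from 0.43 to 0.74 over 8 libraries (adjusted exact permutation p for r at least 0.155). Without the 2 farthest libraries r ranged from 0.032 (H2-Eb1) to 0.73 (H2-Ab1), which overlaps the range among the chain genes, and the difference between the ranges was not tested.

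Cd68 (ENSMUSG00000018774), on chromosome 11 from 69664213 to 69666153, was the steadiest of the 6 genes, with a 1.73-fold range over the 8 libraries against 3.73-fold to 5.82-fold in the other 5. It was at 44.1, 39.7, 50.3 and 52.7 CPM in vehicle replicates 1, 3, 4 and 5, and at 39.3, 60.4, 35.0 and 41.8 CPM in PAHSA replicates 1, 2, 3 and 4. PAHSA libraries were both the highest and the lowest. The log2 difference was -0.11 (SE 0.19, 95% confidence interval -0.53 to 0.31, limma adjusted p = 0.927), and ran from -0.27 without PAHSA replicate 2 to -0.0043 without PAHSA replicate 3. With the chain genes Cd68 had r between -0.10 and 0.30 and rho between -0.17 and 0.40 over 8 libraries (smallest adjusted exact permutation p for r 0.611). Another macrophage gene, C1qa of the complement system, did not follow the class II genes either. It was at 9.29, 8.12, 11.8 and 18.0 CPM in vehicle replicates 1, 3, 4 and 5 and at 13.0, 12.8, 11.1 and 18.1 CPM in PAHSA replicates 1, 2, 3 and 4, a log2 difference of 0.27 (SE 0.31). Its level was the second lowest in vehicle replicate 1, where the chain genes were highest. Among other macrophage markers, Cd40, a costimulatory receptor, differed by -0.65 (SE 0.28, limma unadjusted p = 0.0416), and Siglec1 was too low to test.

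Other genes of the class II pathway gave 3 higher and 13 lower of 16 tested, out of 25 entries listed, beside 50.9% of all genes lower. The median log2 difference of the 16 was -0.28. Of the lower ones 3 had an unadjusted p under 0.05 in limma, beside 4.29% of all genes, and 0 passed after adjustment. The 3 were Lgmn, an asparaginyl endopeptidase that takes part in invariant chain processing, at -0.48 (SE 0.11), Mif, a cytokine ligand of Cd74, at -0.51 (SE 0.14), and the cathepsin Ctsl at -0.39 (SE 0.14). In Lgmn and Mif the 4 PAHSA libraries lay below the 4 vehicle libraries, where 4.01% of all genes had groups that did not overlap in either direction. Lgmn was between 132.4 and 157.5 CPM in vehicle and between 95.3 and 113.6 CPM in PAHSA. All 3 of these genes are also expressed outside leukocytes. The peptide exchange factor DM followed the pattern of the chain genes in part: H2-DMb1 was lowest in PAHSA replicate 1 at 1.67 CPM and highest in PAHSA replicate 4 at 11.6 CPM, with a log2 difference of -0.28 (SE 0.64). H2-DMb2 had its lowest and highest values in the same libraries, at 1.13 and 8.31 CPM. So did H2-DMa, at 4.29 and 10.7 CPM, with a log2 difference of -0.12 (SE 0.41). Unlike the chain genes, H2-DMa was higher in vehicle replicate 5, at 8.86 CPM, than in vehicle replicate 4, at 4.77 CPM. The relation of the DM genes to the chain genes was not tested. The RFX subunits, which bind the X box, did not share a direction, with Rfxap at 0.49 (SE 0.25), Rfx5 at -0.38 (SE 0.43) and Rfxank at -0.41 (SE 0.33).

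**Figure D4:**
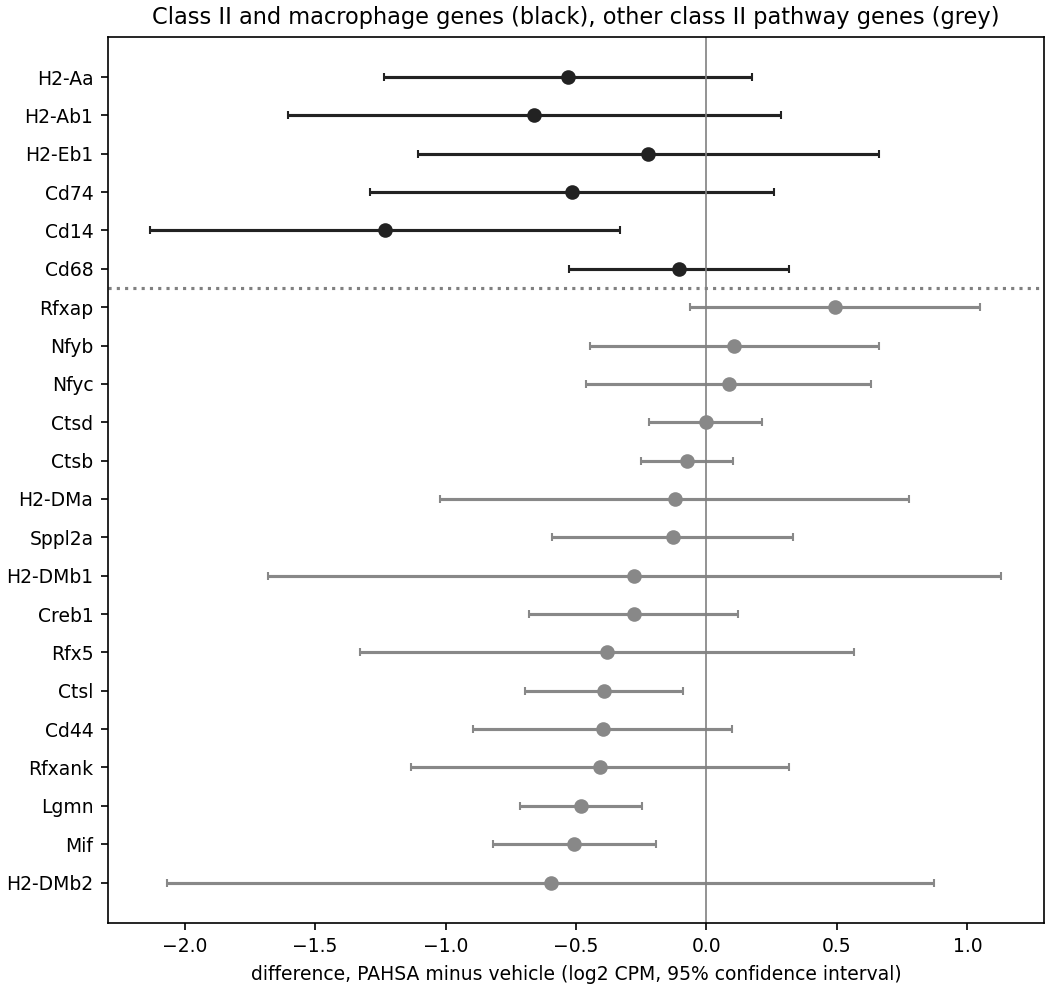
Difference in log2 CPM, PAHSA minus vehicle, with its 95% confidence interval from limma (horizontal axis) for the 6 genes in black and 16 other class II pathway genes in grey. The intervals of H2-Aa, H2-Ab1, H2-Eb1, Cd74 and Cd68 include 0, that of Cd14 runs from -2.13 to -0.33, and those of Lgmn, Mif and Ctsl lie below 0.

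Genes from interferon gamma to Ciita gave 5 higher and 4 lower of 9 tested, with a median of 0.01. The transcription factor gene Irf1 differed by 0.15 (SE 0.14), while Socs3, an inhibitor of cytokine signalling, differed by -0.45 (SE 0.16). In Socs3 the 4 PAHSA libraries lay below the 4 vehicle libraries, beside 4.01% of all genes without overlap in either direction. Around Cd14, the Tlr4 signalling list gave 6 higher and 5 lower of 11 tested, with a median of 0.05. Of these 11, 1 had an unadjusted p under 0.05 in limma, beside 7.31% of all genes in either direction, and 1 gene of 11 is close to that share. It was Lbp, the lipopolysaccharide binding protein that passes its ligand to Cd14, at -0.87 (SE 0.32). Lbp was at 24.8, 38.8, 16.0 and 20.8 CPM in vehicle replicates 1, 3, 4 and 5 and at 10.0, 11.9, 11.8 and 20.5 CPM in PAHSA replicates 1, 2, 3 and 4. As with Cd14, PAHSA replicate 4 was the highest PAHSA library. Among cathepsins and their cystatin inhibitors, 2 were higher and 8 lower of 10 tested, and 4 of the lower ones had an unadjusted p under 0.05, beside 4.29% of all genes. These were Ctsl and Lgmn, which the class II pathway count above already holds, Ctsz at -0.33 (SE 0.11), and Ctsh.

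The genes most like the mean of the 4 class II chain genes over the 8 libraries, by Pearson's r among 11440 protein-coding genes compared, included 3 class I histocompatibility genes among the first 4. These were H2-K1 (r = 0.98), H2-Q6 (r = 0.97) and H2-D1 (r = 0.96). The molecules of H2-K1 and H2-D1 present peptides from inside the cell to CD8 T cells. H2-K1 was between 8.64 and 9.26 log2 CPM in vehicle and between 8.43 and 8.99 in PAHSA, a difference of -0.23 (SE 0.15). H2-D1, at a mean of 11.4 log2 CPM, had a difference of -0.20 (SE 0.13). The others of the 8 were Dnah11 (r = 0.98), Synrg (0.95), Kirrel (0.95), Bhlhb9 (0.94) and Dnajc6 (0.93). Class I genes are similar in sequence, so their separate values are uncertain. The 8 genes most like Cd68 were led by H2-M3 (r = 0.94) and Rab7 (r = 0.94), a small GTPase of late endosomes, and included Klhl36, Fmo1, Eid2b, Smarcd3, Tnrc6a and Pax6 at r from 0.90 to 0.91. These likenesses are descriptions over 8 libraries and were picked as the highest of many.

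Markers of connective tissue were set beside the class II genes and Cd14, and no relation passed after adjustment. Of the 9 stellate and fibroblast markers tested 8 were lower in PAHSA, beside 50.9% of all genes. The median log2 difference of the 9 was -0.94. Of the lower ones 1 had an unadjusted p under 0.05 in limma, beside 4.29% of all genes, and 0 passed after adjustment. The 10 stellate and fibroblast markers summed to 313.6, 268.4, 127.9 and 82.2 CPM in vehicle replicates 1, 3, 4 and 5, and to 38.3, 129.7, 90.2 and 142.8 CPM in PAHSA replicates 1, 2, 3 and 4. Vehicle replicate 1 was again highest and PAHSA replicate 1 lowest. Unlike these sums, the marker mean used below averages log2 levels, so genes near the lowest value weigh in it as much as the others. Lum was at 0.041, 0.014 and 0.013 CPM in PAHSA replicates 1, 2 and 4, against 2.26 to 3.95 CPM in vehicle. Dcn was at 0.041 and 0.038 CPM in PAHSA replicates 1 and 3, and at 11.1 CPM in PAHSA replicate 2. The mean of these markers and that of the chain genes had r = 0.81 (exact permutation p = 0.0140, adjusted 0.0929 over 9 relations) and rho = 0.71 (adjusted exact permutation p = 0.208) over 8 libraries. Without the 2 libraries farthest from the median r was 0.41, so the relation rests on those libraries. Cd14 had r = 0.75 and rho = 0.76 with these markers (adjusted exact permutation p = 0.0929 and 0.208), and r = 0.87 without the 2 farthest libraries. With the 10 beta cell markers Cd14 had r = -0.79 and rho = -0.64 (adjusted exact permutation p = 0.0929 and 0.216), and r = -0.62 without the 2 farthest. The chain genes had r = -0.56 and rho = -0.40 with the beta cell markers (adjusted exact permutation p = 0.323 and 0.540). The beta cell marker mean, as a deviation in log2 CPM, ran from -0.30 to -0.05 in vehicle and from 0.07 to 0.27 in PAHSA. The groups did not overlap in it, nor in the stellate mean. No r within groups was taken for these marker means, so these r cannot be separated from the treatment difference. Once the stellate mean was added to the model, the median difference of the chain genes turned from -0.52 to 0.85, with H2-Ab1 at 0.93, H2-Eb1 at 1.14 and Cd74 at 0.78, all at an unadjusted p under 0.05 and none past the adjusted threshold. The stellate marker mean, as a deviation in log2 CPM, ran from -0.06 to 1.94 in vehicle and from -1.75 to -0.14 in PAHSA. The groups did not overlap in it, so the fit cannot separate treatment from the marker mean. The part of connective tissue in the class II and Cd14 values was not tested beyond this fit.

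Acinar markers, whose summed level ran from 8988 to 36091 CPM in vehicle and from 443.6 to 13582 CPM in PAHSA, had r = 0.02 and rho = -0.02 with the chain genes over 8 libraries (exact permutation p = 0.955 for r). Like the 6 genes, the acinar markers had lower means in PAHSA, 18 of 18 tested, beside 50.9% of all genes. The median log2 difference of the 18 was -2.25. Of these 14 had an unadjusted p under 0.05 in limma, beside 4.29% of all genes lower at that threshold, and 0 passed after adjustment. PAHSA replicate 4, the library with the lowest acinar level, held the highest PAHSA levels of H2-Ab1, H2-Eb1, Cd74 and Cd14. Few lymphocyte genes had values. The B cell gene Cd79a was between 0.17 and 0.75 CPM in vehicle and between 0.68 and 1.64 CPM in PAHSA, and the T cell kinase gene Lck between 3.88 and 9.85 CPM and between 1.53 and 7.62 CPM. Lcp1, the pan-leukocyte marker with values, was at 0.50 CPM in PAHSA replicate 1 and at 6.92 CPM in PAHSA replicate 4, and between 0.81 and 1.52 CPM in vehicle. Lcp1 was thus lowest in PAHSA replicate 1, as the chain genes were, but not highest in vehicle replicate 1, the library with the highest class II levels. It is a single gene at a low level. The part of leukocyte content in these values was not tested.

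**Figure D5:**
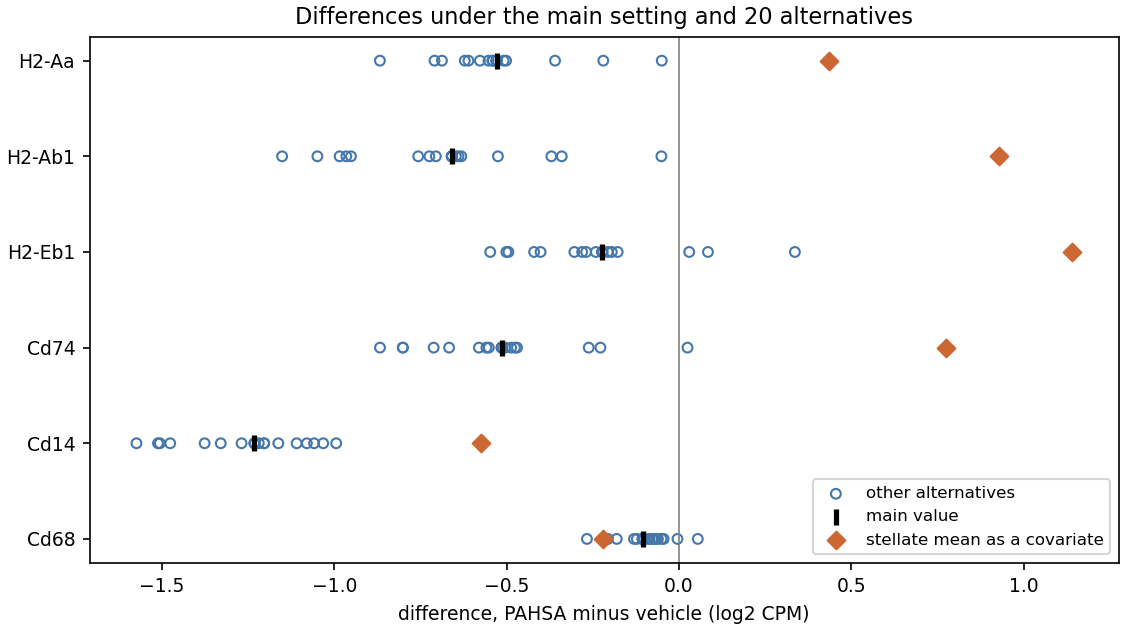
Difference in log2 CPM, PAHSA minus vehicle (horizontal axis), of each gene under the main setting (black bar), after adding the stellate mean to the model (diamond) and under the other 19 alternatives (circles). Cd14 stays below 0 in all 20, whereas the 4 class II chain genes lie above 0 with the stellate covariate, and H2-Eb1, Cd74 and Cd68 lie on either side of 0 under others. The groups do not overlap in the stellate mean.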

How the data were processed

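Islet RNA was isolated on columns and sequenced from Nextera XT libraries, which keep no strand information. The deposited values are log2 CPM for 13725 Ensembl identifiers in 8 libraries. The tools named, per the submitters' processing notes, were kallisto and limma. Their versions, the genome build and the annotation were not given in the sources used here. Symbols, positions and transcript lengths came from GENCODE M21 (GRCm38), which named 13669 identifiers and left 56 unnamed. The lowest value of each column corresponds to 0 counts with 0.5 added. Estimated counts were recovered from it, of which 47.8% to 51.5% were whole to within 0.01, and so they describe depth only and no count test was run.

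Genes with a mean log2 CPM above 0 were tested (12231 of 13725) with limma 3.58.1 in R 4.3.3 by its moderated test with a trend on expression. The model held the treatment group and no covariate, tests were two-sided, and p-values were adjusted by Benjamini-Hochberg over all tested genes at 0.05. The fit was tested on simulated data. Relations and ratios over libraries used exact permutation tests. The genes and lists were chosen with earlier results of these data known. Named genes were the 10 listed, the 3 with the smallest p of each list and the 8 most like the class II mean or Cd68, and Cd68 alone stood for the macrophage mean because Lyz2, Ctss and Tyrobp were not analysed here. H2-DMa, H2-DMb1, H2-DMb2, the RFX subunits, Siglec1, Ctsh, Cd79a and Lum were named after their values were seen. Alternatives changed the filter, pseudocount, scaling, variance model, covariates, pairing and libraries used.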

Additional observations from a re-analysis of the deposited data

How the results depend on the processing

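Over 20 alternatives, 19 of them listed at the start and 1 added after seeing the data, 0 genes passed the adjusted threshold in limma, and so none of the 6 genes did. Cd14 kept its sign in all 20, from -1.57 to -0.57, and without 1 library at a time from -1.51 to -0.99. The count of the 6 genes at an unadjusted p under 0.05 was 1 in 15 alternatives, 2 with the acinar mean as a covariate, 3 with the stellate mean added to the model and 4 with the replicate block, and between 1 and 3 when 1 library was left out. It was 3 without vehicle replicate 5 and 2 without PAHSA replicate 4. The share of all genes at that threshold was taken for the main setting only (7.31%), so the counts under alternatives have no background beside them. With the stellate mean added, the median of the class II chain genes was 0.85, and H2-Aa, H2-Ab1, H2-Eb1 and Cd74 turned to 0.44, 0.93, 1.14 and 0.78. The groups did not overlap in the stellate mean, so this setting cannot separate it from treatment, and the cause was not tested. H2-Eb1 was 0.03 without vehicle replicate 1, 0.084 without PAHSA replicate 1 and 0.34 without both libraries numbered 1, and between -0.50 and 0.084 without 1 library at a time. That last setting, chosen after seeing the data because these libraries were highest and lowest, gave 0.025 for Cd74 and a median of -0.01 for the chain genes, against -0.52 with all libraries. Leaving out 1 library at a time the median ran from -0.74 to -0.24. Cd68 was 0.055 with the acinar covariate. The replicate numbers 1, 3 and 4 stand in both groups, but over the genes tested same-numbered libraries did not deviate together (r = -0.020, -0.017 and -0.022). Such r over all genes cannot show whether the numbers mark pairs, since a pairing could touch only some genes, and this was not tested further. With the replicate block over these 6 libraries the chain median was -0.87. The lowest value of the 6 genes rested on 251 estimated counts, and the number of libraries, 4 per group, sets the width of the intervals.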
